A study of Mus musculus with 6 samples.

Results

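The miR-34 and miR-449 microRNAs were examined in small RNA libraries of mouse heart muscle (myocardium) through the rows whose names begin with mmu-miR-34a-, mmu-miR-34b-, mmu-miR-34c- or mmu-miR-449. This rule found 6 of the 984 mature miRNAs listed in each file: mmu-miR-34a-5p, mmu-miR-34b-5p, mmu-miR-34c-5p, mmu-miR-449a-5p, mmu-miR-34b-3p and mmu-miR-34c-3p, written below without the species prefix. The study is titled as work on estimating the post-mortem interval, the time between death and sampling. It holds 3 libraries labelled 0 h and 3 labelled 6 d, with no genotype, strain, sex, age or storage condition of the mice given, and no other treatment in any group. Whether each library came from a different animal is not stated. The rows were picked by name, but the family was proposed for study with its 6 d against 0 h values known, so its difference between the intervals is described here and no p-value is given for it.

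MicroRNAs are short RNAs that guide Argonaute proteins to messenger RNAs, mainly through the seed, bases 2 to 8 counted from their 5′ end. Each precursor hairpin has a 5′ and a 3′ arm, and the mature strands cut from them are called 5p and 3p. The miR-34 and miR-449 families are known as guides of multiciliated epithelial cells, such as those lining the airway, where they act together in building cilia, and they are also abundant in testis. miR-34a is the broadly expressed member, studied in the heart for its part in ageing and in damage after infarction. miR-34b and miR-34c are made from 1 shared primary transcript. Induction by p53 is known for the miR-34 family and does not set miR-34a apart from miR-34b and miR-34c. No messenger RNA was measured in these libraries, so the ciliated cells that the family is known for could not be checked by their own markers.

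The mature sequences are shown because the shared seeds set which rows belong together and how alike the reads are that had to be told apart. RefSeq's table for GRCm38.p6 held 5 of the 6 members, and miR-34c-5p was not matched. Capitals mark the seed.
miR-34a-5p: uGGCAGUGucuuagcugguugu
miR-34b-5p: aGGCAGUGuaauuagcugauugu
miR-449a-5p: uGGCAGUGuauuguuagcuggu
miR-34b-3p: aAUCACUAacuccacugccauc
miR-34c-3p: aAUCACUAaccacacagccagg
The 3 matched 5p members had the same seed, GGCAGUG, and both 3p members had AUCACUA. Among the 1679 mature names in the table, GGCAGUG was the seed of 4, the other being miR-449c-5p, for which no row was analysed here, and AUCACUA was the seed of the 2 members only. In a global alignment miR-34a-5p matched miR-34b-5p at 19 bases and miR-449a-5p at 18 of its 22. miR-34b-5p and miR-449a-5p matched at 17, and so did miR-34b-3p and miR-34c-3p. miR-34c-5p, the most abundant member, could not be aligned, so these pairs need not include the closest one. The counting tool is unknown from the sources used here, and so is how a read that fits more than 1 member was assigned.

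In GRCm38.p6 miR-34a-5p lies at chr4:150068473-150068494 on the plus strand, where the GENCODE annotation of the same build also places an exon of the unclassified gene model Gm37795. miR-34b-5p (chr9:51103610-51103632), miR-34b-3p (chr9:51103574-51103595) and miR-34c-3p (chr9:51103044-51103065) lie on the minus strand in an intron of Btg4, a gene of the opposite strand. miR-449a-5p lies at chr13:113037549-113037570 on the plus strand in an intron of Cdc20b, which is read in the same direction and is known as a gene of multiciliated cells. The authors' build is not given in the sources used here. These positions therefore describe the RefSeq sequences and not the authors' alignments. The miR-34b hairpin (chr9:51103562-51103645, minus strand) is shown with its arms in capitals, the 5p arm first, since both arms of this precursor were read in every library.
miR-34b hairpin: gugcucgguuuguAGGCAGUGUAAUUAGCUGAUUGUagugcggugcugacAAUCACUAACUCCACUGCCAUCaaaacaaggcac

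Depth differed between the intervals, with 4468547 to 7906563 miRNA reads per library at 0 h and 617069 to 1889593 at 6 d. Levels are given as normalised CPM, read counts per 1000000 scaled by a further factor per library, the scale of 5 of the 6 deposited files. A floor of 3 reads corresponds to 0.463 to 0.730 normalised CPM at 0 h and to 1.91 to 3.97 at 6 d. Fold changes come from a limma fit over the 470 miRNAs that reached 1 normalised CPM in 3 or more libraries. They are differences of log2(value + 1), a scale that shrinks the change of a miRNA with few reads. A call in that fit is a Benjamini-Hochberg adjusted p under 0.05. The heart label was checked against 5 heart muscle miRNAs (miR-1a-3p, miR-133a-3p, miR-208a-3p, miR-208b-3p and miR-499-5p): each had reads at both intervals, and their sum was 256919 to 491616 normalised CPM at 0 h and 113393 to 535915 at 6 d. Most of this sum was miR-1a-3p, with means of 345224 normalised CPM at 0 h and 317670 at 6 d. miR-1a-3p and miR-133a-3p are also miRNAs of skeletal muscle, so the sum does not tell heart from skeletal muscle. Of these 5 markers limma called 1 higher at 6 d, miR-133a-3p, with means of 838 at 0 h and 2270 at 6 d. The 2 called lower were miR-208a-3p (202 and 79.2) and miR-499-5p (2841 and 983). Over all tested miRNAs limma called 16.0% higher and 21.9% lower.

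The 5p members of the family other than miR-34a stood higher at 6 d than at 0 h, miR-34c-5p most by reads, while miR-34a-5p, the member best known from heart, did not. The mean of miR-34c-5p was 30.2 ± 5.58 normalised CPM (SD, n = 3) at 0 h and 276 ± 177 (SD, n = 3) at 6 d. Reads of all 6 rows together made up 0.00405% ± 0.00104 (SD, n = 3) of a 0 h library and 0.0375% ± 0.0138 (SD, n = 3) of a 6 d library. Of the 6 members, all of which passed the filter on low values, limma called 3 higher at 6 d (miR-34b-5p, miR-34c-5p and miR-449a-5p) and 0 lower. miR-449a-5p reached 1 normalised CPM at 0 h only in replicate 1 (1.46), so it passed the filter only through its 6 d values. Its call and its lack of overlap are therefore partly set by the filter. Over all 470 tested miRNAs limma called 37.9%, of which higher 16.0% of the tested and lower 21.9%. At an unadjusted p under 0.05 limma had 4 members higher and 0 lower. On recovered reads edgeR called 4 of the 5 members it tested higher and 0 lower, against 43.0% of its 363 miRNAs called and 22.3% called higher. DESeq2 called 4 of 6 higher and 0 lower, against 33.7% of its 507 called and 19.1% called higher. The added member was miR-34b-3p in both. Groups did not overlap for the same 3 members, all higher at 6 d, against 50.6% of the tested miRNAs without overlap, 19.8% higher and 30.9% lower. Since the family was proposed from this contrast, nothing is read from these counts. The median log2 fold change was 1.79 over the members and -0.33 over all tested miRNAs.

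**Figure D1:**
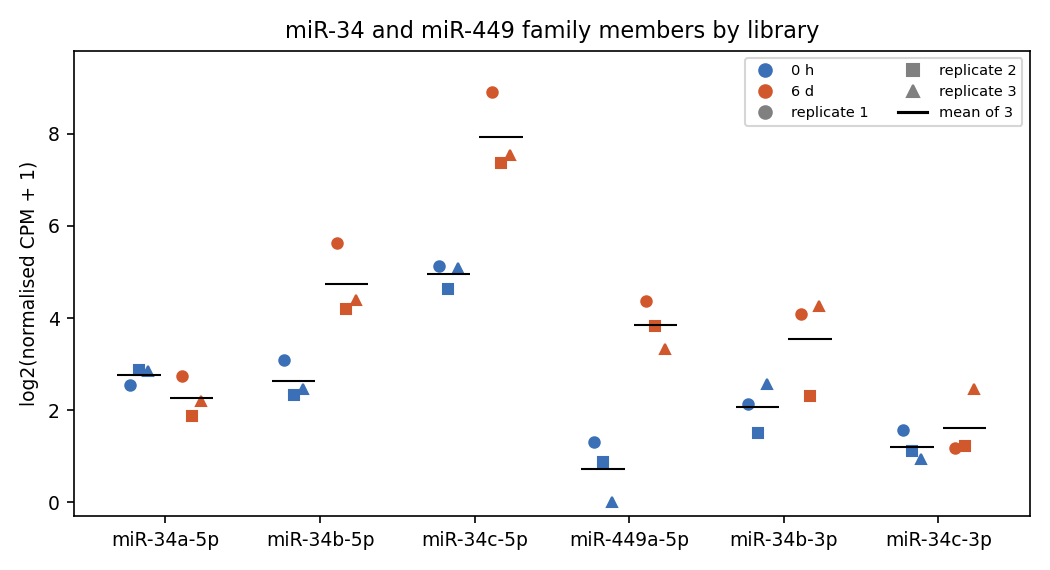
Level of each member on the log2(normalised CPM + 1) scale (y axis) in each library, blue for 0 h and orange for 6 d, with the marker shape giving the replicate number and the bar the mean of 3. The groups are separate for miR-34b-5p, miR-34c-5p and miR-449a-5p and overlap for miR-34a-5p and both 3p members.

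miR-34c-5p was the most abundant member in every library. mmu-miR-34c-5p was read at 33.8, 23.8 and 33.0 normalised CPM in 0 h replicates 1 to 3, from 139, 143 and 214 reads. In the 6 d replicates it was at 481, 163 and 185 normalised CPM, from 755, 123 and 205 reads. The lowest 6 d library was thus 4.81 times the highest 0 h library, and 6 d replicate 1 stood far above the other 6 d libraries. Without 6 d replicate 1 the 6 d mean was 174 normalised CPM in place of 276. The log2 fold change was 2.99 ± 0.44 (SE) with all libraries and 2.5 without 6 d replicate 1. By level miR-34c-5p ranked between 192 and 204 among the 984 miRNAs in the 0 h libraries and between 70 and 111 in the 6 d libraries.

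mmu-miR-34b-5p, made from the same primary transcript, was read at 7.55, 3.99 and 4.48 normalised CPM at 0 h, from 31, 24 and 29 reads. At 6 d it was at 48.4, 17.2 and 19.9, from 76, 13 and 22 reads. The groups did not overlap, and 6 d replicate 1 was again the highest of its group. The log2 fold change was 2.11 ± 0.48 (SE), and the 6 d mean was 28.5 ± 17.3 normalised CPM (SD, n = 3), or 18.5 without 6 d replicate 1.

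mmu-miR-449a-5p, the miR-449 row analysed here, was near the floor at 0 h, with 6, 5 and 0 reads, or 1.46, 0.831 and 0 normalised CPM. The 0 reads in 0 h replicate 3 allow a level of up to 0.463 normalised CPM. At 6 d it had 31, 10 and 10 reads from shallower libraries, or 19.7, 13.2 and 9.02 normalised CPM. The groups did not overlap. Pooled over the libraries of each interval and scaled by their depth and factor, the ratio of 6 d to 0 h reads was 22.4 with an exact 95% interval of 11.5 to 47.7. This and the intervals below cover counting error only and not the spread between libraries, and reads amplified by PCR without molecular identifiers are not independent molecules. The ratio rests on 11 reads at 0 h, where the mean of 0.764 normalised CPM was 0.416 without 0 h replicate 1 and 1.15 without 0 h replicate 3. The log2 fold change was 3.12 ± 0.49 (SE) with 1 added to each value. It was 1.69 with 5 added, 4.42 by edgeR and 4.50 by DESeq2, with the same direction throughout.

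miR-34a-5p differed from these. At 0 h mmu-miR-34a-5p was at 4.87, 6.32 and 6.18 normalised CPM, from 20, 38 and 40 reads. At 6 d it was at 5.73, 2.65 and 3.61, from 9, 2 and 4 reads. The groups overlapped, with 6 d replicate 1 inside the range of 0 h and the other 6 d libraries below it. The 2 reads of 6 d replicate 2 are under the floor. Its pooled read ratio was 0.740 with an exact 95% interval of 0.399 to 1.28, which spans a ratio of 1. Its log2 fold change was -0.48 ± 0.42 (SE), and -0.10 when scaled by library totals alone.

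The 3p strands were low. mmu-miR-34b-3p was at 3.41, 1.83 and 4.94 normalised CPM at 0 h, from 14, 11 and 32 reads. At 6 d it was at 15.9, 3.97 and 18.0, from 25, 3 and 20 reads. The groups overlapped through 6 d replicate 2, whose 3 reads equal the floor. The log2 fold change was 1.48 ± 0.58 (SE) and was not called by limma with all libraries. Without 6 d replicate 2, the lowest 6 d library, it was 2.09 and was called, and without 6 d replicate 3 it was 1.13. Nothing is read from a call that follows from leaving out the lowest library of the higher group. For mmu-miR-34c-3p the 0 h values were 1.95, 1.16 and 0.927 normalised CPM, from 8, 7 and 6 reads, and the 6 d values 1.27, 1.32 and 4.51, from 2, 1 and 5 reads. Its 6 d reads were under the floor in 2 of 3 libraries, and its pooled ratio of 1.84 had an exact 95% interval of 0.705 to 4.33. At this depth its levels at the 2 times could not be told apart.

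**Figure D2:**
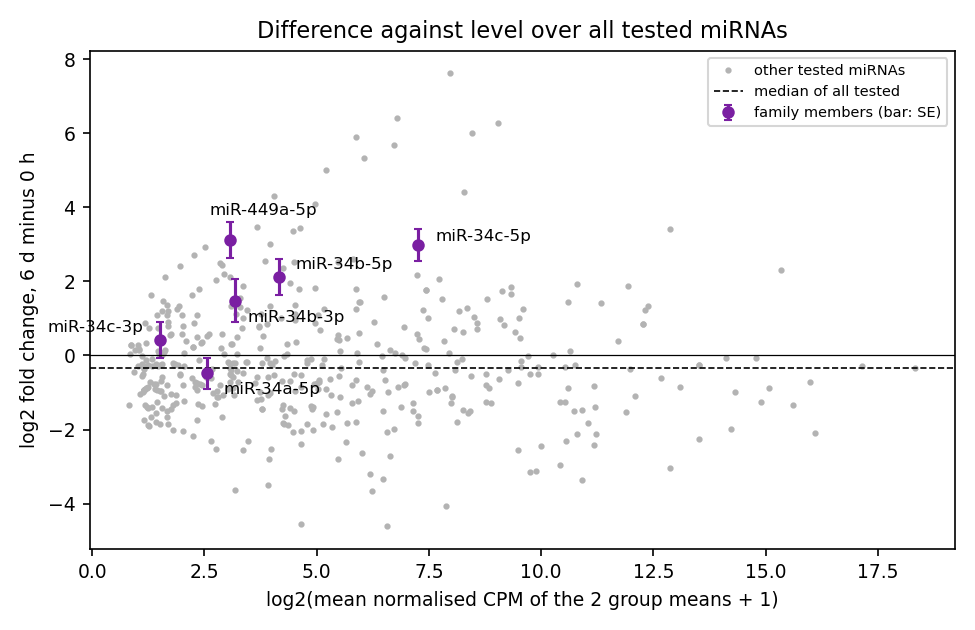
Log2 fold change of 6 d against 0 h (y axis) against mean level on a log2 scale (x axis) for the 470 tested miRNAs, with the 6 members in purple with their SE and the median of all tested miRNAs, -0.33, as a dashed line. miR-34b-5p, miR-34c-5p and miR-449a-5p lie between 2.11 and 3.12 and miR-34a-5p at -0.48.

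The order of the members by level was not the same at the 2 intervals. At 0 h miR-34c-5p came first. It was followed by miR-34a-5p (5.79 ± 0.800 normalised CPM), miR-34b-5p (5.34 ± 1.93) and miR-34b-3p (3.39 ± 1.56), whose ranges overlapped (SD, n = 3 each). Then came miR-34c-3p (1.35 ± 0.534) and miR-449a-5p (0.764 ± 0.733), which also overlapped (SD, n = 3 each). The range of miR-34c-3p, up to 1.95, overlapped that of miR-34b-3p as well, which began at 1.83. At 6 d miR-34c-5p came first again, with its lowest library above the highest of any other member. Next were miR-34b-5p, miR-449a-5p (14 ± 5.4) and miR-34b-3p (12.6 ± 7.58), with overlapping ranges, and last miR-34a-5p (4.0 ± 1.6) and miR-34c-3p (2.37 ± 1.85), which overlapped with each other and with miR-34b-3p (SD, n = 3 each). Without 6 d replicate 3 the 6 d mean of miR-34c-3p was 1.30 normalised CPM. The mature strands matched are 22 or 23 bases long, so no correction for length was made.

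Ratios between members of 1 library do not depend on how that library was scaled. miR-34c-5p made up 70.9%, 68.1% and 75.6% of the reads of the 4 5p members in 0 h replicates 1 to 3, and 86.7%, 83.1% and 85.1% at 6 d. The groups did not overlap. miR-34a-5p held 10.2%, 18.1% and 14.1% at 0 h, and 1.03%, 1.35% and 1.66% at 6 d, also with no overlap. In 6 d replicate 2 its exact 95% interval, from 2 reads of 148, was 0.164% to 4.80%, below the lowest 0 h interval, which began at 6.35%. miR-34b-5p held 12.5% ± 2.93 at 0 h and 8.88% ± 0.218 at 6 d, and miR-449a-5p 1.81% ± 1.61 and 4.82% ± 1.70 (SD, n = 3 each). The miR-449a-5p groups were separated by less than 1 percentage point, between 3.06% in 0 h replicate 1 and 3.56% in 6 d replicate 1, and the intervals of these 2 libraries overlapped. Per read of miR-34a-5p there were 6.95, 3.76 and 5.35 reads of miR-34c-5p at 0 h and 83.9, 61.5 and 51.2 at 6 d. Per read of its clustered partner miR-34b-5p there were 4.48, 5.96 and 7.38 at 0 h and 9.93, 9.46 and 9.32 at 6 d, again without overlap. These shares and ratios were not tested, since they come from the contrast that the family was proposed from. They also rest on how reads were assigned between members of like sequence, which is unknown.

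**Figure D3:**
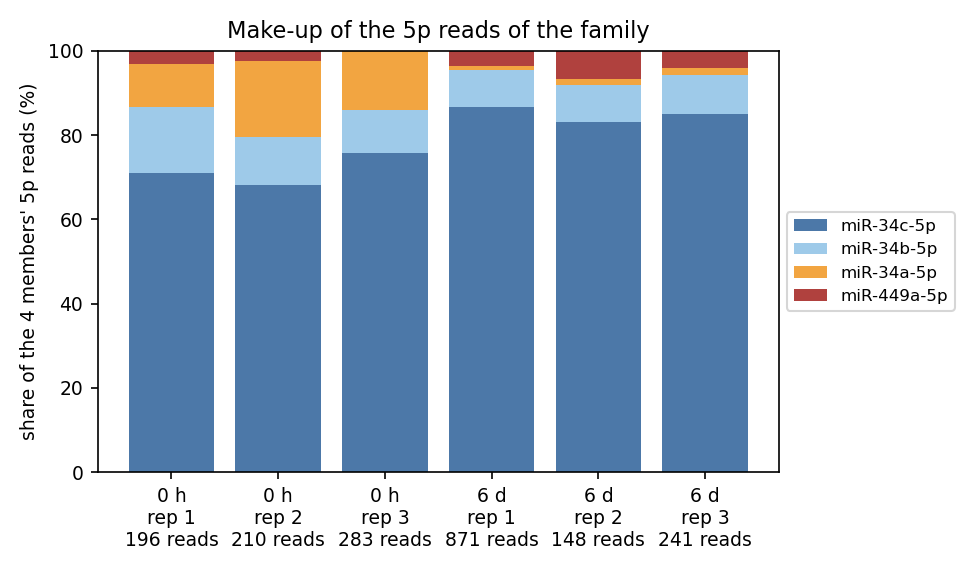
Share of each 5p member in the summed reads of the 4 5p members (y axis, percent) in each library (x axis, with the number of these reads). The miR-34c-5p share is 68.1% to 75.6% at 0 h and 83.1% to 86.7% at 6 d, and the miR-34a-5p share 10.2% to 18.1% and 1.03% to 1.66%.

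Both precursors with 2 arms in the files gave more 5p than 3p reads in 11 of their 12 library values. For miR-34b, whose hairpin is shown above, the 5p share was 68.9%, 68.6% and 47.5% at 0 h and 75.2%, 81.2% and 52.4% at 6 d, out of 16 to 101 reads per library. The groups overlapped, and the replicate labelled 3 was the lowest at either interval. For miR-34c the 5p share was 94.6%, 95.3% and 97.3% at 0 h and 99.7%, 99.2% and 97.6% at 6 d. These groups did not overlap, but 0 h replicate 3 (exact 95% interval 94.2% to 99.0%) and 6 d replicate 3 (94.5% to 99.2%) could not be told apart, and the 6 d shares rest on 2, 1 and 5 reads of the 3p strand.

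**Figure D4:**
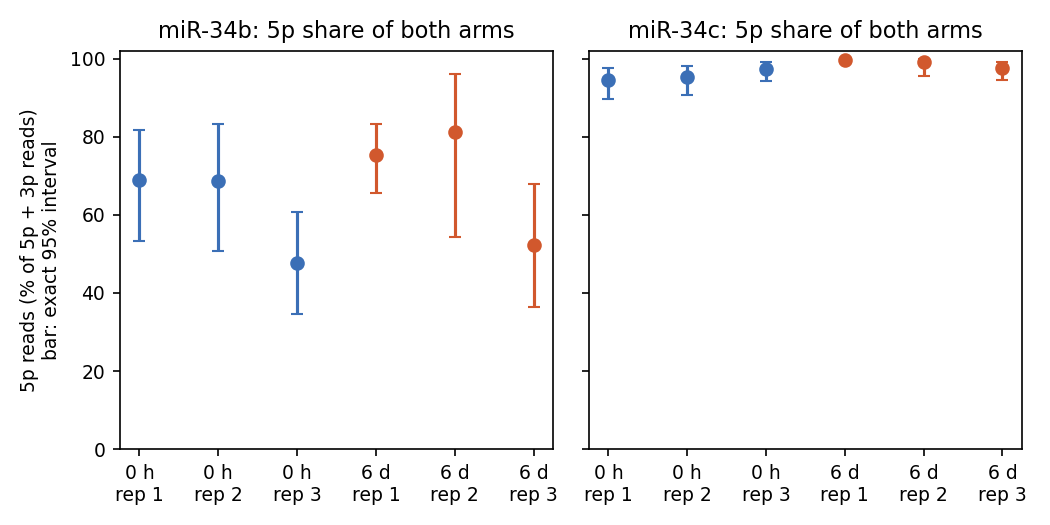
Share of 5p reads among the reads of both arms (y axis, percent) for miR-34b (left) and miR-34c (right) in each library, blue for 0 h and orange for 6 d, with exact 95% binomial intervals that cover counting error only. miR-34b ranges from 47.5% to 81.2% with overlapping groups, miR-34c from 94.6% to 99.7%.

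After every library was thinned to 617069 reads, the size of the smallest, miR-34c-5p kept 18.3, 11.4 and 17.6 reads on average over 100 draws at 0 h, against 248, 109 and 205 at 6 d. miR-449a-5p then averaged 0.830, 0.400 and 0 reads in the 0 h replicates, against 10.3, 8.86 and 10 in the 6 d replicates. For miR-34a-5p the numbers were 2.74, 2.78 and 3.34 at 0 h and 2.82, 1.82 and 4 at 6 d. At equal depth the 6 d libraries thus still held more reads of miR-34c-5p and miR-449a-5p than any 0 h library, while the miR-34a-5p reads of the intervals overlapped.

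Most of a list of epithelial miRNAs, markers of lining cells, were called higher at 6 d. The list was chosen with earlier results of these data known, so its counts and median are a description and nothing is read from them. Of the 11 listed (miR-200a-3p, miR-200b-3p, miR-200c-3p, miR-141-3p, miR-429-3p, miR-205-5p, miR-203-3p, miR-183-5p, miR-96-5p, miR-182-5p and miR-375-3p) limma called 8 higher and 0 lower at 6 d, against 16.0% of all tested miRNAs higher and 21.9% lower, with 9 higher and 0 lower at an unadjusted p under 0.05. Both edgeR and DESeq2 also called 8 higher and 0 lower, against 22.3% and 19.1% of their tested miRNAs higher. At 0 h miR-429-3p was at 0 to 1.23 normalised CPM and miR-205-5p at 0.463 to 2.68. These 2 passed the filter of the limma fit only through 6 d, so their calls are partly set by that filter. The list had a median log2 fold change of 3.01 against -0.33 over all tested miRNAs. Their summed level was 174 to 599 normalised CPM at 0 h and 1496 to 2690 at 6 d, and none of the 11 was without reads at either interval. The members of the list not called were miR-203-3p (log2 fold change -0.26), miR-183-5p (1.12) and miR-182-5p (0.11), which do not belong to the miR-200 family. In 6 d replicates 1 to 3 the epithelial sum was 2690, 1496 and 1678 normalised CPM and the sum of the 6 family members 572, 201 and 240, so replicate 1 was highest in both. At 0 h the epithelial sum was 599, 349 and 174 and the family sum 53.1, 37.9 and 49.6, where the library lowest in the epithelial list was not the lowest in the family. Much of the 0 h epithelial sum, with a mean of 374 normalised CPM, came from miR-203-3p (mean 200) and miR-182-5p (mean 53.5), neither of which was called. The part of epithelial RNA in the levels of the family was not tested. In bulk tissue, fewer cells of a type and less RNA per cell cannot be told apart.

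**Figure D5:**
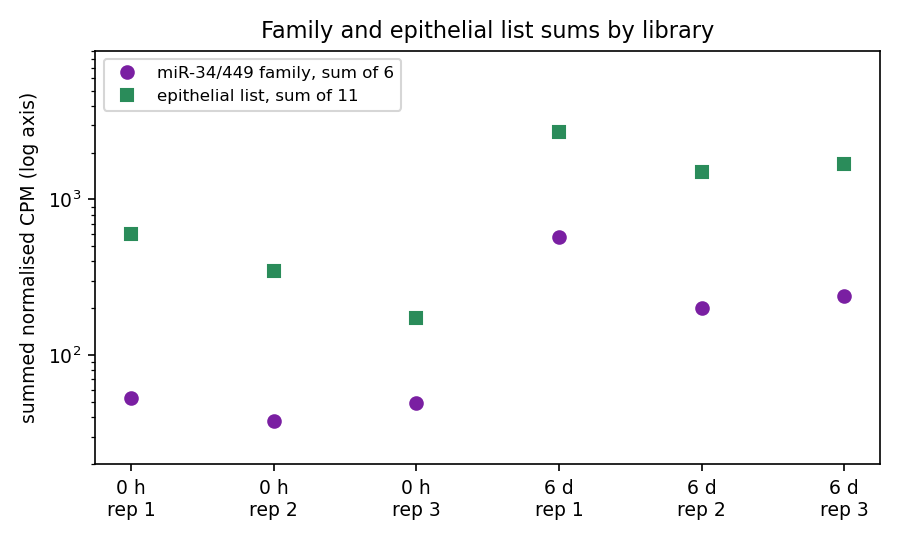
Summed normalised CPM (log axis) of the 6 family members (purple circles) and of the 11 epithelial miRNAs (green squares) in each library. The family sum is 37.9 to 53.1 at 0 h and 201 to 572 at 6 d, the epithelial sum 174 to 599 and 1496 to 2690.

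Testis, the other tissue known for miR-34b, miR-34c and miR-449, was represented by 11 miRNAs of germ and Sertoli cells. Of these 10 were in the files and 4 were tested. Of the 4, limma called 0 in either direction, against 37.9% of all tested miRNAs, and had 1 lower at an unadjusted p under 0.05. Neither edgeR, which tested 1, nor DESeq2, which tested 4, called any. Their sum was 17.3 to 20.8 normalised CPM at 0 h and 2.71 to 15.9 at 6 d, and 4 of the 10 had no read at 6 d. These were miR-743a-3p, miR-878-5p, miR-880-3p and miR-471-5p, with only 4, 1, 2 and 1 reads over the deeper 0 h libraries. At the depth of 6 d their lack of reads does not show a lower level. The skeletal muscle miRNA miR-206-3p was at 8.34 to 15.3 normalised CPM at 0 h and 685 to 1440 at 6 d, and the liver miRNA miR-122-5p at 668 to 1406 and 2086 to 23460. Both were called higher, and their part in the levels of the family was not tested. Of 5 brain miRNAs (miR-124-3p, miR-9-5p, miR-9-3p, miR-128-3p and miR-137-3p) 3 were tested, of which 0 were called higher and 1, miR-128-3p, lower. Over all tested miRNAs limma called 16.0% higher and 21.9% lower. In the 6 d libraries miR-9-5p ranged from 54.3 to 532 normalised CPM. Nothing is read from these small counts of testis and brain miRNAs.

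Members of the miR-34 family, miR-34a among them, are known as targets of p53, and miRNAs outside the family tied to p53 were set beside them. Of 8 listed (miR-192-5p, miR-194-5p, miR-215-5p, miR-145a-5p, miR-143-3p, miR-107-3p, miR-16-5p and miR-15a-5p), all tested, limma called 2 higher and 0 lower, against 16.0% of all tested miRNAs higher and 21.9% lower, with a median log2 fold change of -0.04. At an unadjusted p under 0.05 limma had 2 higher and 1 lower, and edgeR and DESeq2 each called 3 higher and 0 lower, against 22.3% and 19.1% of their tested miRNAs higher. Nothing is read from counts this small. The 2 called by limma were miR-194-5p (1.51 ± 0.39, SE) and miR-16-5p (1.93 ± 0.55). The count of 2 was 1 without 0 h replicate 1, 0 h replicate 3, 6 d replicate 1 or 6 d replicate 2. miR-192-5p, processed from 1 precursor transcript with miR-194, was at -0.32 ± 0.43 and was not called.

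The miRNAs most like the members in their pattern over the 6 libraries were found among 273 others with a mean of at least 10 normalised CPM, by the root-mean-square difference of log2(value + 1) after centring each miRNA on its own mean. For miR-34c-5p these were miR-200a-5p (0.31), miR-20b-5p (0.33) and miR-669c-5p (0.47), while miR-34b-5p was at 0.48 and miR-449a-5p at 0.53. Their 0 h means were 3.0, 2.56 and 2.81 normalised CPM and their 6 d means 23.8, 44.6 and 39.8. They passed the minimum of 10 only through 6 d, so that the minimum admitted miRNAs this low at 0 h only if they were higher at 6 d, as miR-34c-5p was. The nearness is therefore a description, partly set by the minimum and by the contrast that the family was proposed from. miR-200a-5p, the minor strand of an epithelial miRNA, was read at 3.65, 1.5 and 3.86 normalised CPM at 0 h and at 40.7, 17.2 and 13.5 at 6 d. For miR-34b-5p the nearest were miR-200a-5p (0.37), to which the same limit applies, then miR-136-3p (0.40) and miR-93-5p (0.42). For miR-34b-3p they were miR-223-3p (0.22), a miRNA of myeloid leukocytes, miR-181a-1-3p (0.45) and miR-345-5p (0.52), the last with a 0 h mean of 7.75 normalised CPM that was also under the minimum, while miR-34b-5p, cut from the same hairpin, stood at 0.71. miR-34a-5p was the member farthest from miR-34c-5p, at 1.77.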

How the data were processed

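Small RNA of myocardial tissue was sequenced in 3 libraries at 0 h and 3 at 6 d after death. Trizol extraction and a NEBNext kit were used, per the labels' protocols. The submitters' processing notes list STAR 2.5.3a, cutadapt 2.8, Trimmomatic 0.39 and FastQC without their roles. Nothing in the sources used here names a counting tool, an annotation or a build. The deposited file of 0 h replicate 1 holds read counts, whereas log2 values rounded to 3 decimals were deposited for the other 5 libraries. For those 5, 2 to the power of the value minus 1 was a whole multiple of 1 step per library, within the rounding of 0.0005 either way, for 2692 of the 2692 nonzero values whose rounding covers under 0.5 reads. Reads were recovered with these steps. The counts of 0 h replicate 1 were put on the same scale with a factor of 1.09, which makes the factors of the 6 libraries multiply to 1 and is not stated by the authors.

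The levels were fitted with limma 3.58.1 (trended prior, robust) on log2(value + 1), 6 d against 0 h with all 6 libraries and no covariate, over miRNAs reaching 1 in 3 or more libraries. The alternatives were edgeR 4.0.16 (quasi-likelihood, TMM) and DESeq2 1.42.0 on the recovered reads, other scalings, pseudocounts and filters, a replicate block, and each library left out in turn. The limma step was tested on simulated data. Shares have exact Clopper-Pearson 95% intervals. All members are named with their values. Other named miRNAs are the members of the lists and, for each of the 3 members with the highest mean level over all 6 libraries, the 3 nearest profiles. Members and lists were chosen with earlier results of these data known. Replicates may be technical, so calls measure only the spread between these samples.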

Additional observations from a re-analysis of the deposited data

How the results depend on the processing

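Over the 14 alternative fits the count of called members was 3 or 4. These are calls of the contrast that the family was proposed from and are no support for it. The 3 were miR-34b-5p, miR-34c-5p and miR-449a-5p, and the fourth was miR-34b-3p with RLE size factors, edgeR, DESeq2, the replicate block and without 6 d replicate 2. With 1 library left out, the count over all miRNAs, 178, ranged from 114 to 179, with 114 without 0 h replicate 1. The count of members without overlap ranged from 3 to 5, with 5 without 0 h replicate 1, the epithelial miRNAs called higher from 7 to 9 and the p53-linked ones from 1 to 3. The causes were not tested. Scaling by library totals alone moved the median of all tested miRNAs from -0.33 to 0.02 and the calls from 75 higher and 103 lower to 83 and 40, with the same 3 members called. With RLE size factors the calls were 90 higher and 84 lower, with DESeq2 97 and 74, and with edgeR 81 and 75. With the replicate block 195 miRNAs were called. Libraries with the same number had deviations from their group means correlating at 0.0684, 0.0641 and 0.273. For libraries with different numbers the correlations lay between -0.219 and 0.161. The labels do not say that the numbers pair libraries, and the main fit did not treat them as pairs. The log2 fold change of miR-34c-3p was -0.01 without 6 d replicate 3 and 1.07 by DESeq2, and edgeR's filter left it out. The 5p share of miR-34b at 6 d minus 0 h, 7.96 percentage points, ranged from 0.896 to 16.6 with 1 library left out. Thinning changed the shares of the 5p members by less than the spread between replicates. Groups of 3 libraries are too small for a test for outlying samples, and none was made. Depth limits the members with libraries at or under 3 reads: miR-34a-5p, miR-34b-3p and miR-34c-3p at 6 d and miR-449a-5p at 0 h.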
